A study of Mus musculus with 48 samples.

Results

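The genes described here encode the 3 main families of phase II conjugation enzymes of mouse liver: the glutathione S-transferases (GST), the sulfotransferases (SULT) and the UDP-glucuronosyltransferases (UGT). They were taken by name from the array's own annotation, as the GST classes alpha, kappa, mu, omega, pi, theta and zeta, all Sult genes, and the Ugt1a, Ugt2a, Ugt2b and Ugt3a genes, leaving out pseudogenes. This gave 53 genes of 37074 named on the array, with 20 GST, 19 SULT and 14 UGT genes. Each gene was read from 1 probe, the brightest on average. Of the 53, 42 passed the filter on dim probes (18 GST, 10 SULT and 14 UGT), as did 20486 genes in all, and 41 of the 42 were well above background on all 48 arrays. The exception was Sult4a1, a brain-type sulfotransferase, which passed through 1 group and was well above background on 29 arrays. The 11 that did not pass were Gsto2, Gstt4, Sult2a1, Sult2a2, Sult2a3, Sult2a4, Sult2a5, Sult2a6, Sult2b1, Sult3a1 and Sult6b1. Several Sult2a genes and Sult3a1 are known for higher expression in female than in male mouse liver, and all mice here were male.

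Phase II enzymes attach a polar group to a drug, hormone, bile acid or reactive metabolite, so that the product can be exported into bile or blood. GST enzymes transfer glutathione to electrophiles, SULT enzymes transfer sulfate from the donor PAPS, and UGT enzymes transfer glucuronic acid from UDP-glucuronic acid. In hepatocytes these genes are known targets of xenobiotic receptors and of the oxidative stress factor NRF2, and many differ between male and female liver under the control of growth hormone.

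Livers came from male mice with hepatocytes lacking the PI3K catalytic subunit p110α (p110αhep-/-, here LKO) and from their p110αhep+/+ littermates (LWT). LKO mice were C57Bl/6J carrying Pik3ca alleles with loxP sites on both copies and 1 albumin-Cre transgene, and LWT littermates carried the floxed alleles without Cre. From 12 weeks of age both genotypes received a control diet (CTRL) or a high-fat diet (HFD, 60% of calories from fat) for 12 weeks. At the end they were fed or had been fasted for 24 h, and liver was collected at ZT16, that is 16 h after lights on. The 8 groups held 6 mice each, and every liver was hybridized to 1 one-color array. Albumin-Cre was used to delete p110α in hepatocytes, and the RNA is of whole liver, which holds other cells too. Whether those other cells of an LKO liver kept p110α was not tested. In such bulk samples, fewer cells of a type and less RNA per cell cannot be told apart.

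On each array 52.3% to 59.3% of the non-control spots were well above background, and the array weights of the fit ran from 0.35 (LKO HFD FED replicate 3) to 1.71. The 6 hepatocyte markers read (Alb, Apoa1, Cps1, Serpina1a, Tat and Ttr) were well above background on all 48 arrays. The Pik3ca probe was not lower in LKO livers but had a higher range there in each setting. In fed mice it ran from 12.79 to 13.09 in LWT and 13.02 to 13.33 in LKO livers on CTRL, and from 12.58 to 12.99 and 13.08 to 13.56 on HFD, where the genotypes did not overlap. In fasted mice it ran from 13.09 to 13.44 in LWT and 13.27 to 13.55 in LKO livers on CTRL, and from 12.95 to 13.45 and 13.31 to 13.71 on HFD. The loxP sites flank an internal stretch of the gene, and whether the probe lies in it was not tested, so these signals give no support to the genotype labels, and LWT and LKO below mean livers labelled so. In mice of this line the paper reports other measures that run the way the labels say. These are a PCR fragment of the deleted allele, specific to p110αhep-/- livers, and a lack of p110α protein.

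The promoter sequences of genes whose signals carried the results below are shown first, as the 250 bases before the most upstream annotated start, 5′ to 3′ on the gene's strand, from RefSeq on GRCm38.p6. A promoter was found for 45 of the 53 genes. Gsta4, Gstt2, Sult2a1, Sult2a2, Sult2a7, Sult4a1, Ugt1a6b and Ugt3a2 had no entry in the table. The 4 mu class genes Gstm1 (chr3:108017974-108018223), Gstm2 (chr3:107986421-107986670), Gstm3 (chr3:107969175-107969424) and Gstm4 (chr3:108044860-108045109) lie near each other on the minus strand of chromosome 3 and are shown because their signals moved together. Gsta2 (chr9:78347146-78347395, minus strand) and Gsta3 (chr1:21240335-21240584, plus strand) are the alpha class genes called at least once. Sult1c2 (chr17:53845959-53846208), Sult1d1 (chr5:87569007-87569256) and Ugt2b1 (chr5:86926504-86926753), all on the minus strand, were among the SULT and UGT genes with the most calls.
Gstm1: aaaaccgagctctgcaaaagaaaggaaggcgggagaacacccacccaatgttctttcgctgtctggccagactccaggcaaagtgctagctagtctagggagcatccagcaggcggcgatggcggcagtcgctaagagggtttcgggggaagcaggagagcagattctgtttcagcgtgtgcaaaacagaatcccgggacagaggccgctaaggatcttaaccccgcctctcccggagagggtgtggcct
Gstm2: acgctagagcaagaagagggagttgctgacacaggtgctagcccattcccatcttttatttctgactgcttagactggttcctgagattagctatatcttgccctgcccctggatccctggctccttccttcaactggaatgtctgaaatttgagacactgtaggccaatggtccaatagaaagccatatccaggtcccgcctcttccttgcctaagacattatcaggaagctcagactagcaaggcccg
Gstm3: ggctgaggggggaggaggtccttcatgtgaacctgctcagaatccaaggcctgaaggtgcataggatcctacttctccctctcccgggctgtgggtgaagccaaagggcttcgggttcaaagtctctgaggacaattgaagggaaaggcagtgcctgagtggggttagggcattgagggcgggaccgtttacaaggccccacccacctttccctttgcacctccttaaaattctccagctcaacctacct
Gstm4: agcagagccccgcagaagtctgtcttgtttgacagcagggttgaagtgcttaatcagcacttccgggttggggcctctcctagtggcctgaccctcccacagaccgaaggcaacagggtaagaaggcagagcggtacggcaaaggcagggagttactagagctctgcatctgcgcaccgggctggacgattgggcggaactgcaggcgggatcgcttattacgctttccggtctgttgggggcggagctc
Gsta2: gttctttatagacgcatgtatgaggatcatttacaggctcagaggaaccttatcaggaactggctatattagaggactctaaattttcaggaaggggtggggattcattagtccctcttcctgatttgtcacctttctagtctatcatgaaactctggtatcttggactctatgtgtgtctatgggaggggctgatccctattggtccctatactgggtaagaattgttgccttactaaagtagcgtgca
Gsta3: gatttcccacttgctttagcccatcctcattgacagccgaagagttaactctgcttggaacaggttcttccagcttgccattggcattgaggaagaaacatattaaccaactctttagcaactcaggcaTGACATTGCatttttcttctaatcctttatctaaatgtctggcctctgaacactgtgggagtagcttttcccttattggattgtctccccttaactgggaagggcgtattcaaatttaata
Sult1c2: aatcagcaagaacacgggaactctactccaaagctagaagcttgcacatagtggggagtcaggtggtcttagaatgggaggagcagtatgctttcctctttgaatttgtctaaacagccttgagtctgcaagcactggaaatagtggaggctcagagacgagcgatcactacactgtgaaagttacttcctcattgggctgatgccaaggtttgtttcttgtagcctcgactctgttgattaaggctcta
Sult1d1: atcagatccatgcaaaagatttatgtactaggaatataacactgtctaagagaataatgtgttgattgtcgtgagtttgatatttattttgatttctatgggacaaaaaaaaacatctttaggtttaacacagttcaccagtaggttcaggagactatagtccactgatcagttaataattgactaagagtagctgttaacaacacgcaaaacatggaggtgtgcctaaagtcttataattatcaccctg
Ugt2b1: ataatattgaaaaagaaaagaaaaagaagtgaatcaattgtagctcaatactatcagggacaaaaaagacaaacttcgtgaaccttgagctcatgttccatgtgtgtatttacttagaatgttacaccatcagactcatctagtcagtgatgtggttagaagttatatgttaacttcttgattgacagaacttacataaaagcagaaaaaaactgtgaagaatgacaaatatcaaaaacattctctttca

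The capitals in the Gsta3 promoter mark a match to the core of the antioxidant response element, the DNA element that NRF2 binds, searched as TGACNNNGC on both strands. Over windows of 300 bases (250 before to 50 after each start), this core stood in 3 of the 56 promoters of the 45 genes, those of Gsta3, Gstm5 and Gstm7, against 12.4% of all 32851 promoters in the table. A STAT palindrome, TTCNNNGAA, stood in those of Gstm6, Sult3a1 and Ugt1a6a, again 3 of 56, against 8.3% of all promoters. No member held a perfect DR1 repeat, which 0.0396% of all promoters hold, or a perfect HNF1 palindrome, which 0.00913% hold. All motifs were searched on both strands, and the antioxidant core and the DR1 repeat share the letters TGAC on opposite strands. A match or its absence describes only these letters in these windows.

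Signals below are log2 normalized median signals, and a difference of 1 on that scale is a 2-fold change. Calls required a fold change over 1.5 together with an adjusted p of 0.05 or less, from limma with Benjamini-Hochberg adjustment over all 30793 probes kept. Values after ± are standard errors of a log2 fold change. Arrays were weighted in the fit, so fold changes need not equal the gap between the printed medians. Where a call is said to be lost without named arrays, each of them was left out singly. Across the 12 pairwise comparisons (fasting, HFD and genotype, each in 4 settings), 23 of the 42 genes were called at least once and 19 (45.2%) never, against 81.6% of all 20486 genes never called. These shares describe the lists, and no test between them was made. The 72 calls comprised 37 in GST genes (14 higher and 23 lower), 26 in SULT genes (14 higher and 12 lower) and 9 in UGT genes (2 higher and 7 lower). These were 17.1% of the tests in GST genes, 21.7% in SULT genes and 5.36% in UGT genes, beside 4.47% over all genes. In 43 of the 72 calls the 6 mice of one group did not overlap the 6 of the other. The share of such calls over all genes was not computed, so this count only describes the calls.

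**Figure D1:**
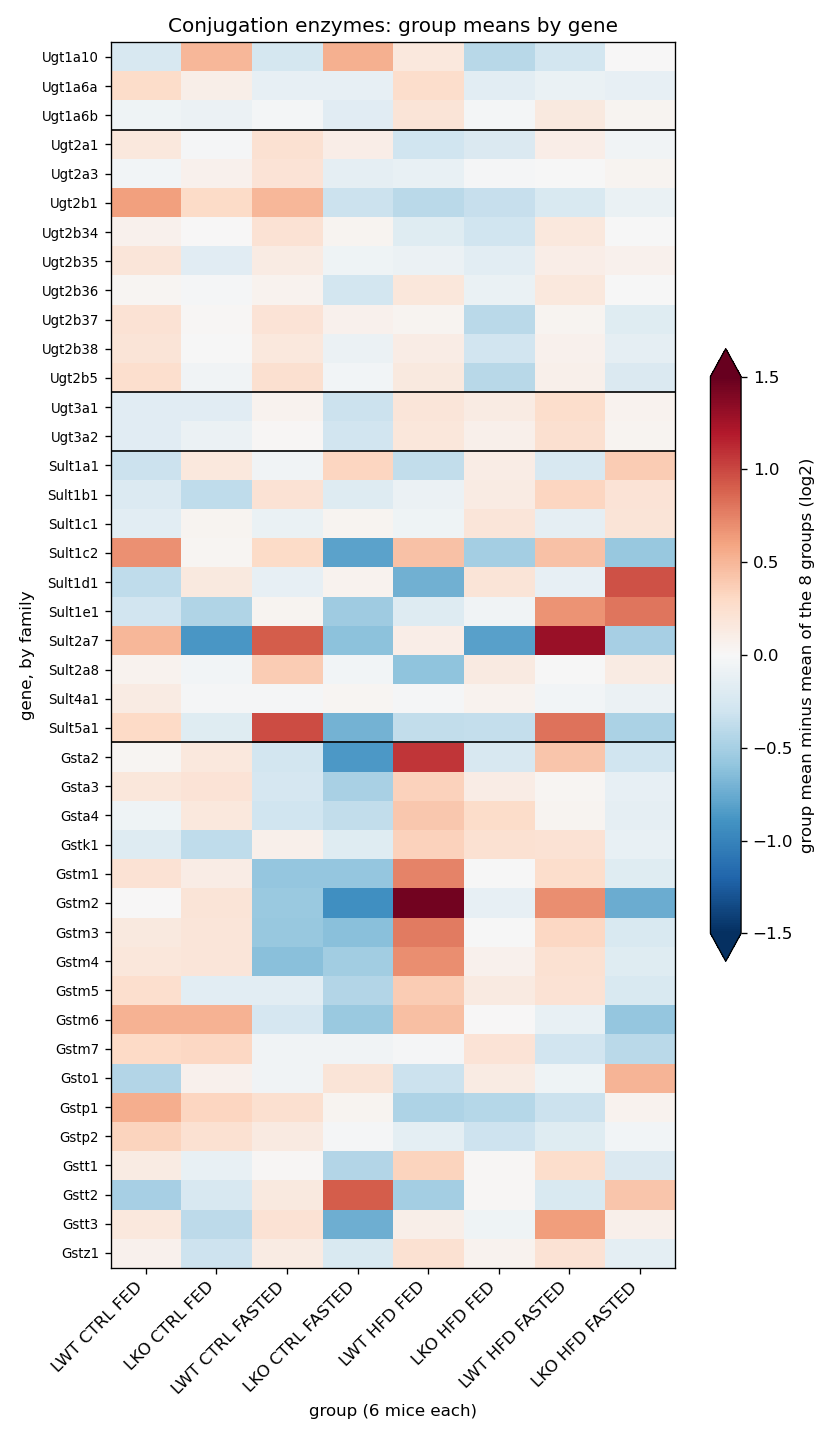
Mean log2 signal of each of the 42 genes that passed the filter in the 8 groups (columns), drawn as the difference from that gene's own mean over the 8 groups, with genes in rows by family (n = 6 mice per group). The mu class genes Gstm1 to Gstm4 are highest in fed LWT mice on HFD, and Sult1c2 and Sult2a7 are lower in the 4 LKO groups than in the LWT groups.

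On the CTRL diet, more of these genes were called lower than higher after fasting. In LWT mice on CTRL, fasting raised 1 gene and lowered 5 of the 42, against 2.92% of all genes higher and 2.52% lower. In LKO mice on CTRL it raised 1 and lowered 6, against 3.65% and 3.44% of all genes. On HFD the counts were 5 higher and 1 lower in LWT mice (all genes 2.25% and 2.47%), and 2 higher and 2 lower in LKO mice (all genes 2.75% and 3.14%). The members' median log2 fold changes in these 4 comparisons were -0.02, -0.10, -0.01 and 0.02, and the median over all genes was 0 in each. The split in LKO mice on HFD was 3 higher and 2 lower with median scaling or with only probes above background on all arrays, 4 and 2 with replicate number as a block, 1 and 2 with no filter on dim probes, and 2 and 1 with the median over a gene's probes. The genes lowered were GST genes of the mu and alpha classes and Sult1c2, and those raised were Gstt2 and, on HFD, sulfotransferases. No UGT gene was called for fasting in any of the 4 comparisons. At the adjusted p alone, with no fold threshold, the split in LWT mice on CTRL was near even, at 8 higher and 10 lower. It was 1 and 15 in LKO on CTRL, 11 and 9 in LWT on HFD and 9 and 8 in LKO on HFD. Over all genes 32.6%, 35.6%, 28.5% and 28.6% passed in either direction.

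HFD was called for between 3 and 6 of the 42 genes in each setting (7.14% to 14.3%). In fed LWT mice it raised 3 (Gstm2, Gsta2 and Gstm3) and lowered 3 (Ugt2b1, Gstp1 and Sult2a8), against 2.64% of all genes higher and 1.1% lower. In fed LKO mice it raised Gstk1 and lowered 3 (Ugt1a10, Gstp1 and Ugt2b1), against 1.3% and 1.03%. In fasted LWT mice it raised 4, all of the mu class, and lowered Ugt2b1 (all genes 1.83% and 0.996%). In fasted LKO mice it raised 3 (Sult1e1, Sult1d1 and Gstt3) and lowered none (all genes 0.918% and 0.971%). The members' median log2 fold changes were 0, -0.10, 0.08 and 0.14 in this order, beside -0.01, 0, -0.02 and 0 over all genes. With arrays scaled to the median or to the 75th percentile of the processed signal, the split in fed LWT mice was 2 higher and 4 lower, and that in fed LKO mice 0 higher and 4 lower. In fed LKO mice it was 2 and 4 with replicate number as a block and 2 and 3 with the median over a gene's probes. With no filter on dim probes or no array weights it was 1 and 2 there.

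**Figure D2:**
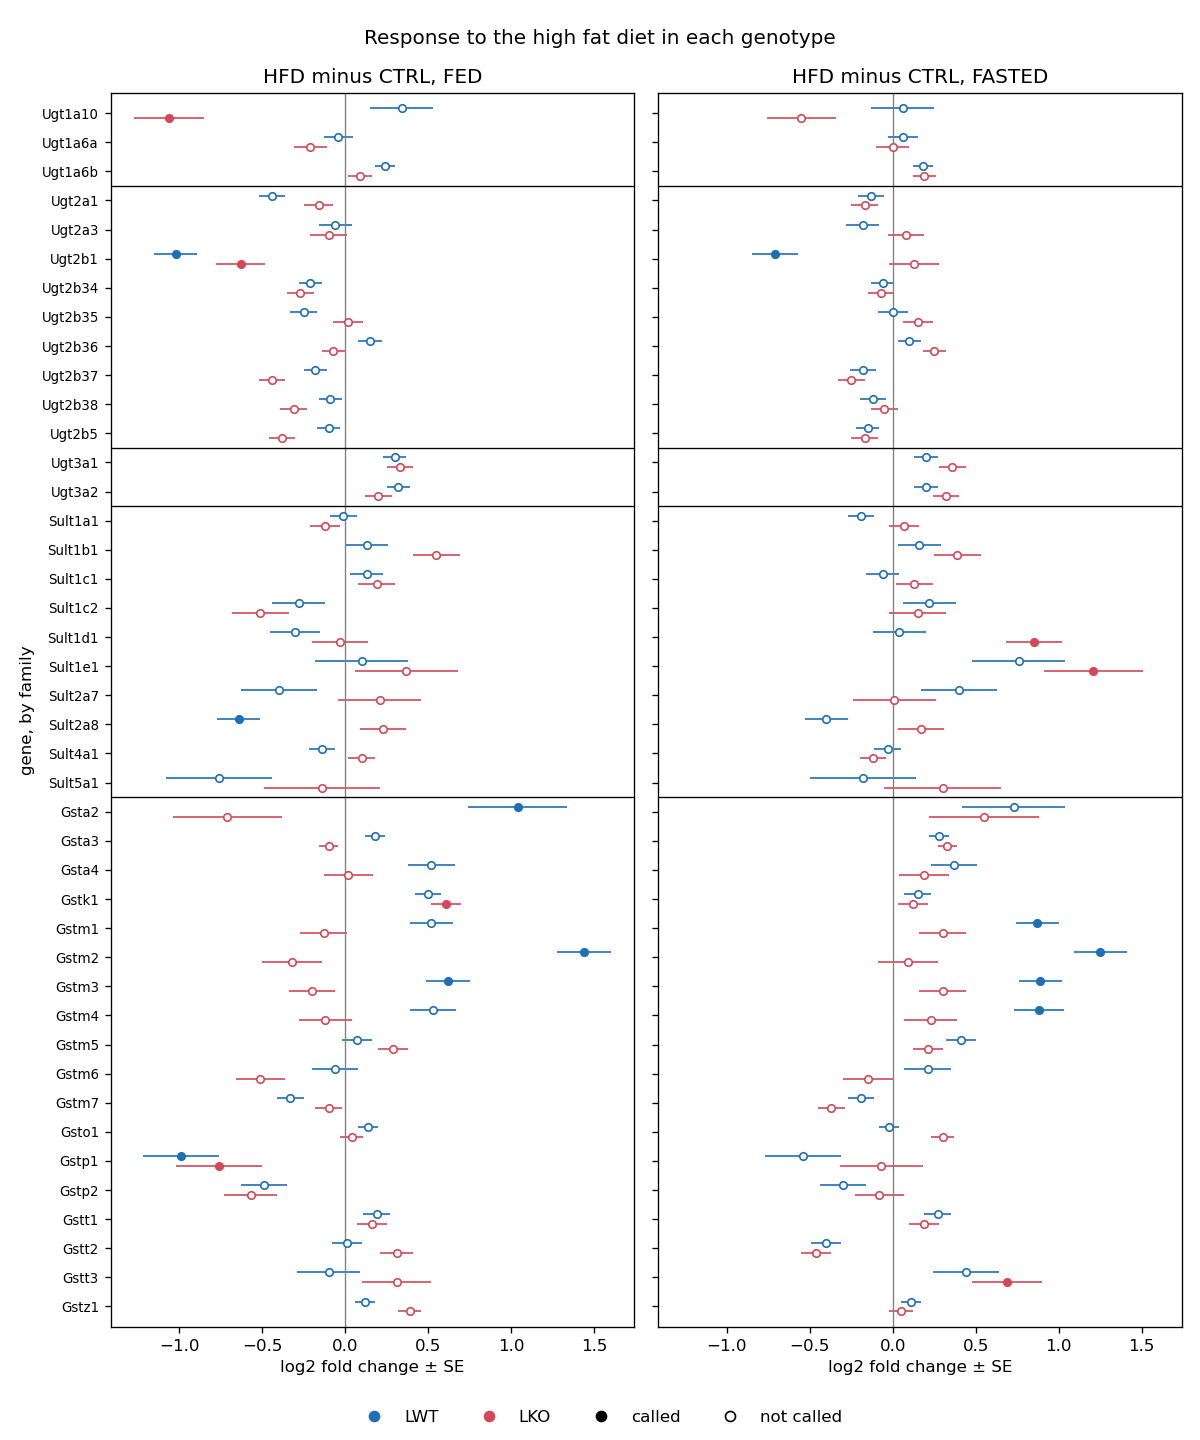
Log2 fold change (HFD over CTRL) with its standard error for each of the 42 genes, in fed mice (left) and fasted mice (right), for LWT and LKO livers, with filled points where the gene was called (n = 6 mice per group). Gstm2 shows the highest LWT value in both panels, at 1.44 fed and 1.25 fasted, where its LKO values lie near or below 0.

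Genotype gave most calls on HFD. In fed mice on CTRL, 2 genes were higher in LKO livers (Ugt1a10 and Sult1d1) and 2 lower (Sult2a7 and Sult1c2), against 1.53% of all genes higher and 2.2% lower. In fed mice on HFD, 2 were higher (Sult1d1 and Sult2a8) and 9 lower, against 2.2% and 4.03% of all genes. In fasted mice on CTRL, 2 were higher (Ugt1a10 and Gstt2) and 5 lower (all genes 1.33% and 1.9%). In fasted mice on HFD, 4 were higher (Sult1d1, Gstt2, Sult1a1 and Gsto1) and 5 lower (all genes 2.32% and 4.23%). The members' medians were -0.09, -0.13, -0.20 and -0.17, beside 0.02, 0.03, 0.01 and 0.03 over all genes. The split in fed mice on CTRL was 4 higher and 2 lower with median scaling, 3 and 2 with the 75th percentile and 1 and 2 with the normexp background. At the adjusted p alone, with no fold threshold, more genes were lower than higher in each setting. Those splits were 5 higher and 10 lower (CTRL fed), 6 and 17 (HFD fed), 4 and 17 (CTRL fasted) and 5 and 17 (HFD fasted). Over all genes 21.7%, 33%, 24.8% and 36.8% passed in either direction.

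**Figure D3:**
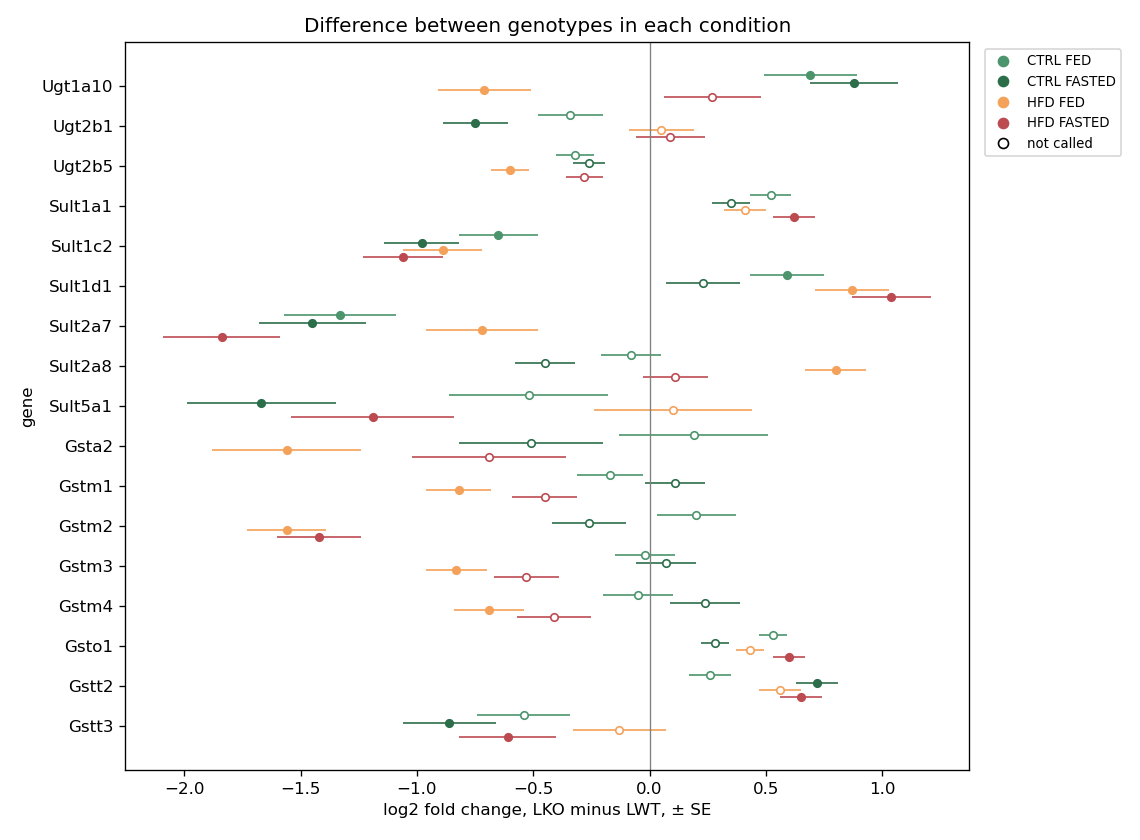
Log2 fold change (LKO over LWT) with its standard error for the 17 genes called for genotype at least once, in each of the 4 settings of diet and feeding (n = 6 mice per group). Sult1c2 and Sult2a7 lie below 0 in all 4 settings, and Gstm2 lies far below 0 in the 2 HFD settings, at -1.56 fed and -1.42 fasted.

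Interaction terms asked whether one factor's effect differed between levels of another, and a call needed a ratio of fold changes over 1.5. The genotype by diet term was called for 5 of the 42 genes in fed mice, 1 higher and 4 lower, against 1.38% of all genes in either direction. In fasted mice it was called for 3, 2 higher and 1 lower, against 1.86%, and with the normexp background for 2 and 2. The genotype by fasting term was called for none on CTRL, against 1.33%, although 11 genes had an unadjusted p under 0.05 and 2 an adjusted p under 0.05 (3.99% of all genes at that adjusted p alone). On HFD it was called for 1, Sult2a8, against 1.38%. The diet by fasting term was called for none in LWT livers, against 0.893%, where 7 genes had an unadjusted p under 0.05 and none an adjusted p under 0.05 (2.37% of all genes). In LKO livers it was called for 3 (Gstt2, Sult1d1 and Ugt2b1), against 2.9%. These tests share groups with the pairwise comparisons and with each other, so a gene's calls are not independent of one another. All 72 pairwise and 12 interaction calls had the same sign within each of the 2 washing batches of 3 slides. The calls were made on both batches together, so this is no independent check of them.

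The mu class of GST enzymes, which conjugate many xenobiotic epoxides and lipid peroxidation products, held most of the GST calls. All 7 mu genes had negative fasting values in all 4 comparisons, and 5, 3, 1 and 2 of them passed the test in LWT on CTRL, LKO on CTRL, LWT on HFD and LKO on HFD, against 2.52%, 3.44%, 2.47% and 3.14% of all genes called lower. HFD raised 4 mu genes in fasted LWT mice (all genes 1.83% higher), and 4 were lower in LKO than in LWT livers in fed mice on HFD (all genes 4.03% lower).

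Gstm2 varied most by group among the mu genes. Its lowest, median and highest log2 signals in fed mice on CTRL were 12.44, 12.59 and 12.94 in LWT and 12.45, 12.96 and 13.04 in LKO livers. On HFD they were 13.68, 14.17 and 14.48 in fed LWT and 12.16, 12.53 and 12.87 in fed LKO livers. The 6 fed LWT mice on HFD thus lay above all mice of the other 3 fed groups. After the fast, the values on CTRL were 11.47, 12.23 and 12.41 in LWT and 11.21, 11.78 and 12.28 in LKO livers, and on HFD 12.93, 13.29 and 13.77 in LWT and 11.46, 11.99 and 12.19 in LKO livers. Again the LWT mice on HFD lay above all others of the same feeding state. HFD raised Gstm2 2.71-fold in fed LWT mice (log2 fold change 1.44 ± 0.16, adjusted p = 1.17e-08, with 1.47 and 1.43 in the 2 washing batches) and 2.39-fold in fasted LWT mice (log2 fold change 1.25 ± 0.16, adjusted p = 8.29e-07, with 0.91 and 1.57 in the 2 batches). In LKO mice its HFD values did not pass the test, with -0.32 fed and 0.09 fasted. On HFD it was 2.95-fold lower in fed LKO than fed LWT livers (log2 fold change -1.56 ± 0.17, adjusted p = 1.18e-09) and 2.68-fold lower in fasted ones (log2 fold change -1.42 ± 0.18, adjusted p = 2.62e-08, with -1.18 and -1.63 in the 2 batches). The HFD effect differed between genotypes in fed mice, by -1.76 ± 0.24 on the log2 scale (adjusted p = 3.77e-05), and in fasted mice, by -1.16 ± 0.24 (adjusted p = 0.00323, with -0.77 and -1.52 in the 2 batches).

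Gstm2 was also the only gene of the 42 called lower after fasting in all 4 settings. The log2 fold changes were -0.60 ± 0.16 in LWT on CTRL (adjusted p = 0.00455), -1.05 ± 0.17 in LKO on CTRL (adjusted p = 2.73e-06), -0.78 ± 0.16 in LWT on HFD (adjusted p = 0.00019) and -0.64 ± 0.18 in LKO on HFD (adjusted p = 0.00739), all by limma. Fed and fasted mice did not overlap on CTRL and overlapped on HFD. The call in LWT on CTRL was lost without LWT CTRL FASTED replicates 4 or 5 or LWT CTRL FED replicates 3 or 4 (log2 fold changes -0.58 to -0.46). That in LKO on HFD was lost without LKO HFD FASTED replicate 6 or LKO HFD FED replicate 2 (log2 fold changes -0.56 to -0.54). The LWT call on CTRL also fell to between -0.51 and -0.58, below the fold threshold, under 5 other processing settings.

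Gstm1, Gstm3 and Gstm4 followed each other closely. Gstm3 signals in fed mice (lowest, median and highest) were 16.00, 16.47 and 16.95 in LWT on CTRL, 16.31, 16.54 and 16.78 in LKO on CTRL, 16.92, 17.18 and 17.24 in LWT on HFD and 15.95, 16.38 and 16.57 in LKO on HFD. In fasted mice they were 15.44, 15.80 and 16.10 in LWT on CTRL, 15.10, 15.94 and 16.07 in LKO on CTRL, 16.47, 16.70 and 16.78 in LWT on HFD and 15.92, 16.13 and 16.31 in LKO on HFD. LWT mice on HFD had the highest median in both feeding states and did not overlap LKO mice on HFD. Gstm3 fell on fasting in LWT on CTRL (log2 fold change -0.77 ± 0.13, adjusted p = 9.73e-06) and in LKO on CTRL (log2 fold change -0.69 ± 0.13, adjusted p = 6.25e-05), and HFD raised it 1.86-fold in fasted LWT mice (log2 fold change 0.89 ± 0.13, adjusted p = 4.99e-06). In fed LWT mice the rise on HFD was 1.54-fold (log2 fold change 0.62 ± 0.13, adjusted p = 0.000379, with 0.94 and 0.38 in the 2 washing batches), a call that was lost without LWT CTRL FED replicates 5 or 6 (log2 fold changes 0.50 to 0.56) and with median or 75th percentile scaling (0.53 and 0.47). The same scalings took its fasting value in LKO on CTRL to -0.53 and -0.49, below the threshold. In fed mice on HFD it was 1.78-fold lower in LKO livers (log2 fold change -0.83 ± 0.13, adjusted p = 5.05e-06), and the HFD effect in fed mice differed between genotypes by -0.82 ± 0.19 (adjusted p = 0.0134).

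Gstm1 ran from 15.69 to 16.08 in fed LWT mice on HFD and from 14.75 to 15.45 in fed LKO mice on HFD, with medians of 15.95 and 15.17. In fed mice on CTRL its lowest, median and highest values were 14.95, 15.27 and 15.82 in LWT and 15.03, 15.29 and 15.45 in LKO livers. After the fast they were 14.26, 14.65 and 14.91 in LWT on CTRL, 13.92, 14.79 and 15.01 in LKO on CTRL, 15.32, 15.42 and 15.62 in LWT on HFD and 14.78, 15.02 and 15.07 in LKO on HFD. The genotypes overlapped on CTRL and did not on HFD. Fasting lowered Gstm1 1.81-fold in LWT on CTRL (log2 fold change -0.86 ± 0.13, adjusted p = 2.77e-06), HFD raised it 1.83-fold in fasted LWT mice (log2 fold change 0.87 ± 0.13, adjusted p = 1.19e-05), and it was 1.77-fold lower in LKO livers in fed mice on HFD (log2 fold change -0.82 ± 0.14, adjusted p = 1.05e-05). The probe used for Gstm1 is annotated to chromosome 5 (mm9, 117082490 to 117082549), while the gene's other probe, on chromosome 3, followed it with r = 0.97 over the 48 livers and was called the same way in all 3 comparisons. That probe was also called for fasting in LKO on CTRL (-0.63, adjusted p = 0.00123), where the one used gave -0.57.

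Gstm4 had fed values (lowest, median and highest) of 11.62, 11.91 and 12.55 in LWT on CTRL, 11.85, 12.00 and 12.28 in LKO on CTRL, 12.24, 12.54 and 12.78 in LWT on HFD and 11.57, 11.93 and 12.12 in LKO on HFD. Its fasted values were 10.84, 11.16 and 11.64 in LWT on CTRL, 10.52, 11.57 and 11.70 in LKO on CTRL, 11.84, 12.07 and 12.30 in LWT on HFD and 11.54, 11.62 and 11.90 in LKO on HFD. It was called for the same 3 comparisons as Gstm1, namely fasting in LWT on CTRL (log2 fold change -0.86 ± 0.15, adjusted p = 1.1e-05), HFD in fasted LWT mice (log2 fold change 0.88 ± 0.15, adjusted p = 3.89e-05) and genotype in fed mice on HFD (log2 fold change -0.69 ± 0.15, adjusted p = 0.000399). The last 2 differences separated all 6 mice of one group from all 6 of the other. Within groups, the correlation over the 48 livers was 0.95 between Gstm1 and Gstm3, 0.93 between Gstm3 and Gstm4 and 0.91 between Gstm1 and Gstm4, where the median over 861 pairs of the 42 genes was 0.11 (range -0.60 to 0.95). All pairs share the same arrays and the mu genes are close in sequence, so cross-hybridization could add to these values, and its part was not tested.

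**Figure D4:**
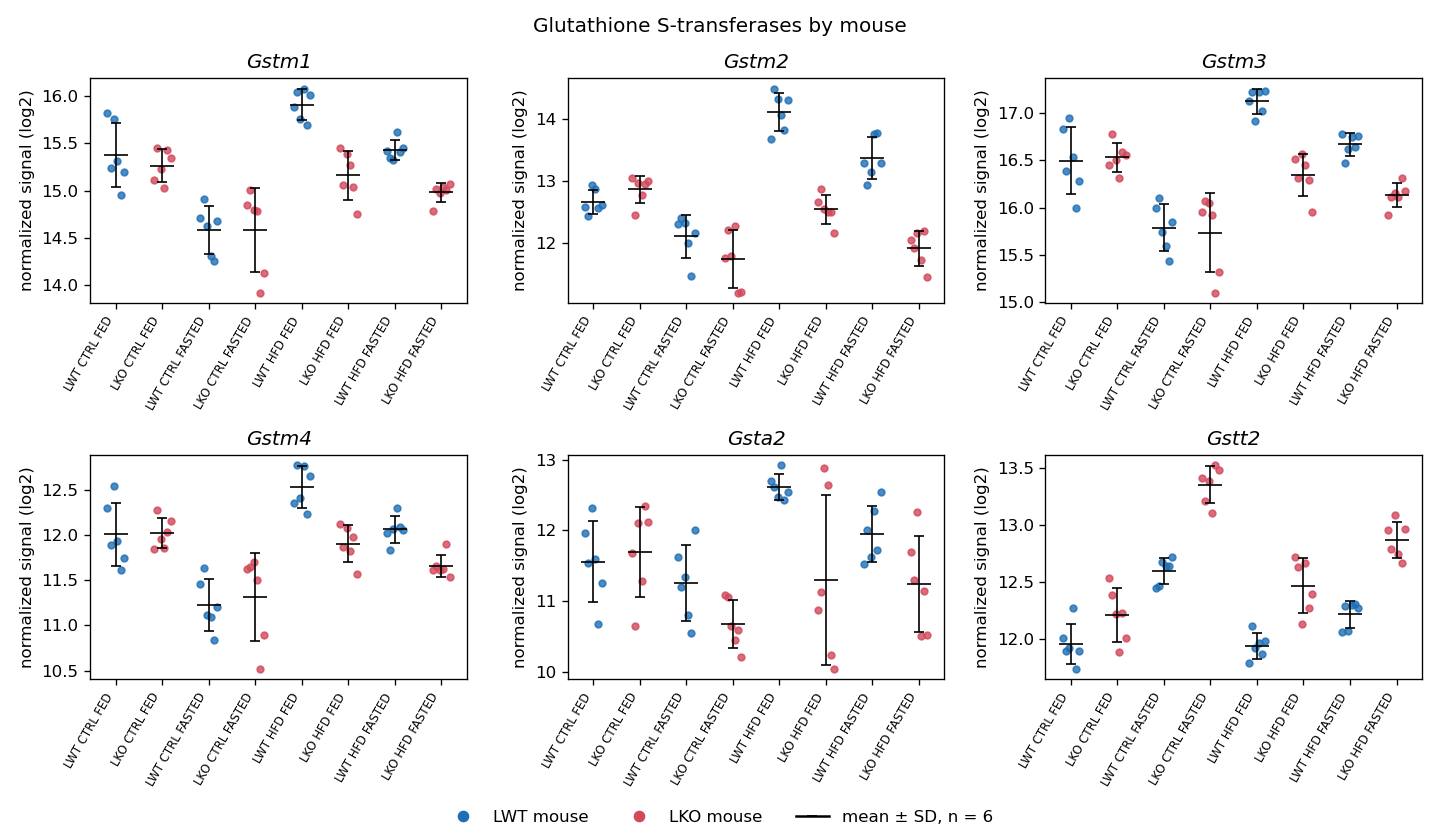
Log2 signal of Gstm1, Gstm2, Gstm3, Gstm4, Gsta2 and Gstt2 in each of the 48 livers, by group (points, single mice, and lines with bars, group mean ± SD, n = 6 per group). The 6 fed LWT mice on HFD lie above the 6 fed LKO mice on HFD for each of the 4 mu genes, and Gstt2 is highest in fasted LKO mice on CTRL.

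Of the remaining mu genes, Gstm6 was 1.72-fold lower after fasting in LWT on CTRL (log2 fold change -0.78 ± 0.14, adjusted p = 3.51e-05) and 1.9-fold lower in LKO on CTRL (log2 fold change -0.92 ± 0.15, adjusted p = 2.43e-06), with no overlap between fed and fasted mice. A second Gstm6 probe was called the same way in both and in 5 further tests. It gave 0.78 for HFD in fasted LWT mice (adjusted p = 2.13e-05), where the probe used gave 0.21, and -0.75 and -0.65 for genotype on HFD, fed and fasted (adjusted p = 1.51e-05 and 0.000154), where the probe used gave -0.47 and -0.52. On it the HFD effect also differed between genotypes, by -0.66 in fed and -0.67 in fasted mice (adjusted p = 0.0398 and 0.0256), so that for Gstm6 an effect of HFD or genotype rests on the choice of probe. Gstm7 fell on fasting in LKO on HFD (log2 fold change -0.61 ± 0.09, adjusted p = 8.92e-07), a call that was lost without LKO HFD FASTED replicate 6 (log2 fold change -0.55) and with the median over its probes (-0.45). Gstm5 was called in no comparison, with pairwise values between -0.47 and 0.41.

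The alpha class enzymes, abundant in hepatocytes and active on lipid hydroperoxides and steroids, passed the filter as 3 genes. Gsta2 signals in fed mice (lowest, median and highest) were 10.67, 11.57 and 12.32 in LWT on CTRL, 10.65, 11.90 and 12.34 in LKO on CTRL, 12.43, 12.58 and 12.93 in LWT on HFD and 10.04, 11.00 and 12.89 in LKO on HFD. The fasted values were 10.55, 11.27 and 12.01 in LWT on CTRL, 10.21, 10.62 and 11.08 in LKO on CTRL, 11.52, 11.87 and 12.54 in LWT on HFD and 10.51, 11.22 and 12.26 in LKO on HFD. The fed LWT mice on HFD were tightly grouped and lay above all fed mice on CTRL, and the LKO mice on HFD spread over a wide range that reached into theirs. HFD raised Gsta2 2.05-fold in fed LWT mice (log2 fold change 1.04 ± 0.30, adjusted p = 0.0109, with 1.61 and 0.60 in the 2 washing batches), a call lost without LWT CTRL FED replicate 5 (log2 fold change 0.83). In fed mice on HFD it was 2.95-fold lower in LKO livers (log2 fold change -1.56 ± 0.32, adjusted p = 0.000173), and fasting lowered it 2.1-fold in LKO on CTRL (log2 fold change -1.07 ± 0.32, adjusted p = 0.00663). The HFD effect in fed mice differed between genotypes by -1.75 ± 0.45 (adjusted p = 0.0258, with -2.46 and -1.11 in the 2 washing batches). That call was lost without LKO CTRL FED replicates 3 or 5, LKO HFD FED replicates 5 or 6 or LWT CTRL FED replicate 5 (log2 fold changes -1.65 to -1.54), and also with no filter on dim probes (-1.65), no washing batch correction (-1.66) or no array weights (-1.45).

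Gsta3 fell 1.58-fold on fasting in LKO on CTRL (log2 fold change -0.66 ± 0.06, adjusted p = 1.21e-11), with 17.54 to 17.76 in fed and 16.79 to 17.12 in fasted mice and no overlap. In LWT on CTRL its value was -0.42 (adjusted p = 6.03e-07), below the fold threshold, and with median or 75th percentile scaling the LKO value was -0.42 and -0.41, below it as well. Of the 2 other Gsta3 probes, one followed the probe used with r = 0.97 and was called in the same comparison. The other, dimmer at a mean of 9.59 and with r = 0.54, was called in LWT on CTRL (-0.72, adjusted p = 8.28e-06) and not in LKO on CTRL (-0.28, adjusted p = 0.0748), so the genotype in which Gsta3 passed for fasting depends on the probe. Gsta4, which clears the lipid aldehyde 4-hydroxynonenal, was called in no comparison.

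Theta class enzymes act on small halogenated molecules, and their 2 called genes moved in opposite directions between genotypes. Gstt2 in fed mice had lowest, median and highest signals of 11.74, 11.91 and 12.27 in LWT on CTRL, 11.89, 12.23 and 12.54 in LKO on CTRL, 11.79, 11.94 and 12.12 in LWT on HFD and 12.13, 12.52 and 12.72 in LKO on HFD. After 24 h without food they were 12.45, 12.64 and 12.72 in LWT on CTRL, 13.11, 13.40 and 13.53 in LKO on CTRL, 12.06, 12.28 and 12.31 in LWT on HFD and 12.67, 12.88 and 13.09 in LKO on HFD. All fasted LKO mice on CTRL lay above all other mice. Fasting raised Gstt2 2.19-fold in LKO (log2 fold change 1.13 ± 0.09, adjusted p = 2.18e-13) and 1.59-fold in LWT mice on CTRL (log2 fold change 0.67 ± 0.09, adjusted p = 9.05e-08), and was not called on HFD (0.36 in LKO and 0.26 in LWT). The fasting effect in LKO livers differed between diets (HFD minus CTRL) by -0.77 ± 0.13 (adjusted p = 0.00013, with -0.90 and -0.64 in the 2 washing batches). In fasted mice it was higher in LKO than LWT livers on CTRL (log2 fold change 0.72 ± 0.09, adjusted p = 3.94e-08) and on HFD (log2 fold change 0.65 ± 0.09, adjusted p = 6.12e-07), with no overlap in either. A second, dimmer Gstt2 probe was called in every comparison named here and, for fasting, on HFD as well, at 0.67 in LWT (adjusted p = 0.000608) and 0.62 in LKO (adjusted p = 0.00608), beside 1.51 in LWT and 1.57 in LKO on CTRL. On it the fasting effect differed between diets in LWT livers too (-0.85, adjusted p = 0.0251), Gstt2 was higher in LKO livers in fed mice (0.64 on CTRL and 0.68 on HFD, adjusted p = 0.00295 and 0.000895), and HFD lowered it in fasted mice (-0.64 in LWT and -0.71 in LKO, adjusted p = 0.00299 and 0.00298), which the probe used did not call.

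Gstt3 in fasted mice ran (lowest, median and highest) through 12.56, 12.94 and 13.41 in LWT and 11.17, 12.09 and 12.65 in LKO on CTRL, and 12.57, 13.47 and 13.75 in LWT and 12.27, 12.84 and 13.27 in LKO on HFD. In fed mice the values were 12.26, 12.96 and 13.24 in LWT and 11.76, 12.47 and 12.55 in LKO on CTRL, and 12.69, 12.78 and 12.97 in LWT and 11.71, 12.79 and 13.36 in LKO on HFD. The genotypes overlapped in every setting. It was 1.81-fold lower in LKO livers in fasted mice on CTRL (log2 fold change -0.86 ± 0.20, adjusted p = 0.00102). On HFD after fasting it was also lower (log2 fold change -0.61 ± 0.21, adjusted p = 0.0213), but the call was lost without LKO HFD FASTED replicates 1, 2 or 4 or LWT HFD FASTED replicates 3, 4 or 5 (log2 fold changes -0.57 to -0.51), and under no filter (-0.58), slide as a block (-0.57), the replicate block (-0.57) or no array weights (-0.55). HFD raised it in fasted LKO mice (log2 fold change 0.69 ± 0.21, adjusted p = 0.0269), a call lost without LKO CTRL FASTED replicates 1, 5 or 6 or LKO HFD FASTED replicates 3, 5 or 6 (log2 fold changes 0.59 to 0.67). Gstt1 was not called, with genotype values between -0.52 and -0.25.

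In the remaining GST classes, calls were few. Gstp1, the pi class enzyme that is known to be higher in male mouse liver, fell on HFD in fed LWT mice (log2 fold change -0.99 ± 0.23, adjusted p = 0.00154), with 13.87 to 15.47 on CTRL and 13.65 to 13.98 on HFD, ranges that overlap at their edges. In fed LKO mice it fell as well (log2 fold change -0.76 ± 0.26, adjusted p = 0.0448), a call lost without LKO CTRL FED replicates 1, 2, 4 or 6 or LKO HFD FED replicates 1, 2, 4 or 5 (log2 fold changes -0.78 to -0.65) and with no filter on dim probes (-0.76) or no array weights (-0.74). Gstp2 was not called, with -0.49 and -0.57 for these 2 comparisons. Gstk1, the mitochondrial and peroxisomal kappa enzyme, rose on HFD in fed LKO mice (log2 fold change 0.61 ± 0.09, adjusted p = 3.09e-06) and had 0.50 ± 0.08 in fed LWT mice, below the fold threshold. The LKO call was lost without LKO HFD FED replicate 4 (log2 fold change 0.53) and with median or 75th percentile scaling (0.54 and 0.56). Gsto1, an omega enzyme with thiol transferase activity, was higher in LKO livers in fasted mice on HFD (log2 fold change 0.60 ± 0.07, adjusted p = 2.37e-09), lost without LKO HFD FASTED replicate 3 or LWT HFD FASTED replicates 3 or 4 (log2 fold changes 0.56 to 0.58) and at 0.58 without the washing correction, with slide as a block or without array weights. Its other 3 genotype values were also positive, at 0.53, 0.43 and 0.28, with adjusted p-values of 4.33e-08, 1.21e-06 and 0.000767 and fold changes under 1.5. A second Gsto1 probe was called in fed mice on CTRL as well (0.63, adjusted p = 2.23e-08). Gstz1, an enzyme of tyrosine breakdown, was called in no comparison.

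Among the sulfotransferases, Sult1c2 and Sult2a7 were the genes called lower in LKO livers in all 4 settings of diet and feeding. Sult1c2, a phenol-type sulfotransferase, had lowest, median and highest signals in fed mice of 10.21, 10.57 and 10.74 in LWT and 9.64, 9.91 and 10.04 in LKO on CTRL, and 9.87, 10.24 and 10.81 in LWT and 8.61, 9.37 and 9.93 in LKO on HFD. In fasted mice they were 9.58, 10.20 and 10.39 in LWT and 8.27, 9.14 and 9.41 in LKO on CTRL, and 9.80, 10.35 and 10.63 in LWT and 8.92, 9.31 and 9.56 in LKO on HFD. The genotypes overlapped only in fed mice on HFD. The log2 fold changes (LKO over LWT, limma) were -0.65 ± 0.17 fed on CTRL (adjusted p = 0.00369), -0.89 ± 0.17 fed on HFD (adjusted p = 5.32e-05), -0.98 ± 0.16 fasted on CTRL (adjusted p = 9.38e-06) and -1.06 ± 0.17 fasted on HFD (adjusted p = 5.33e-06). Fasting also lowered it in LKO mice on CTRL (log2 fold change -0.77 ± 0.16, adjusted p = 0.000253), with no overlap.

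Sult2a7 belongs to the hydroxysteroid and bile acid sulfotransferases. In fed mice its lowest, median and highest signals were 8.66, 9.11 and 9.31 in LWT and 6.64, 7.88 and 8.15 in LKO on CTRL, and 7.97, 8.63 and 9.18 in LWT and 5.98, 8.07 and 8.57 in LKO on HFD. After the fast they were 9.08, 9.45 and 9.96 in LWT and 7.41, 8.06 and 8.23 in LKO on CTRL, and 9.18, 9.67 and 11.09 in LWT and 7.46, 8.12 and 8.43 in LKO on HFD. As with Sult1c2, only the fed HFD groups overlapped. It was 3.57-fold lower in LKO livers in fasted mice on HFD (log2 fold change -1.84 ± 0.25, adjusted p = 1.86e-07), 2.73-fold lower in fasted mice on CTRL (log2 fold change -1.45 ± 0.23, adjusted p = 7e-06) and 2.51-fold lower in fed mice on CTRL (log2 fold change -1.33 ± 0.24, adjusted p = 6.71e-05). In fed mice on HFD the difference was -0.72 ± 0.24 (adjusted p = 0.0192, with -0.43 and -1.02 in the 2 washing batches), a call lost without LKO HFD FED replicates 3 or 6 or LWT HFD FED replicate 4 (log2 fold changes -0.62 to -0.58). Fasting raised it 2.27-fold in LWT mice on HFD (log2 fold change 1.18 ± 0.23, adjusted p = 7.94e-05, with 0.75 and 1.53 in the 2 washing batches).

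Sult5a1 was lower in LKO livers after fasting. Its lowest, median and highest signals in fasted mice were 8.96, 9.48 and 10.56 in LWT and 7.60, 7.85 and 8.03 in LKO on CTRL, and 8.25, 9.59 and 9.81 in LWT and 6.70, 8.33 and 8.62 in LKO on HFD. In fed mice they were 8.02, 8.99 and 9.68 in LWT and 7.30, 8.19 and 9.25 in LKO on CTRL, and 7.20, 8.04 and 9.65 in LWT and 7.74, 8.05 and 8.90 in LKO on HFD, where the genotypes overlapped widely. In fasted mice it was 3.18-fold lower in LKO livers on CTRL, without overlap (log2 fold change -1.67 ± 0.32, adjusted p = 0.000138), and 2.28-fold lower on HFD, with overlap (log2 fold change -1.19 ± 0.35, adjusted p = 0.00653). Fasting raised it 2.29-fold in LWT mice on HFD (log2 fold change 1.20 ± 0.32, adjusted p = 0.00363, with 1.85 and 0.59 in the 2 washing batches). Its other probe, dimmer and well above background on 41 arrays, gave smaller values for these 3 comparisons, at -0.73 (adjusted p = 0.000214, called), -0.52 (adjusted p = 0.00866) and 0.41 (adjusted p = 0.0265), the last 2 with fold changes under 1.5, so the sizes printed rest on the probe.

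**Figure D5:**
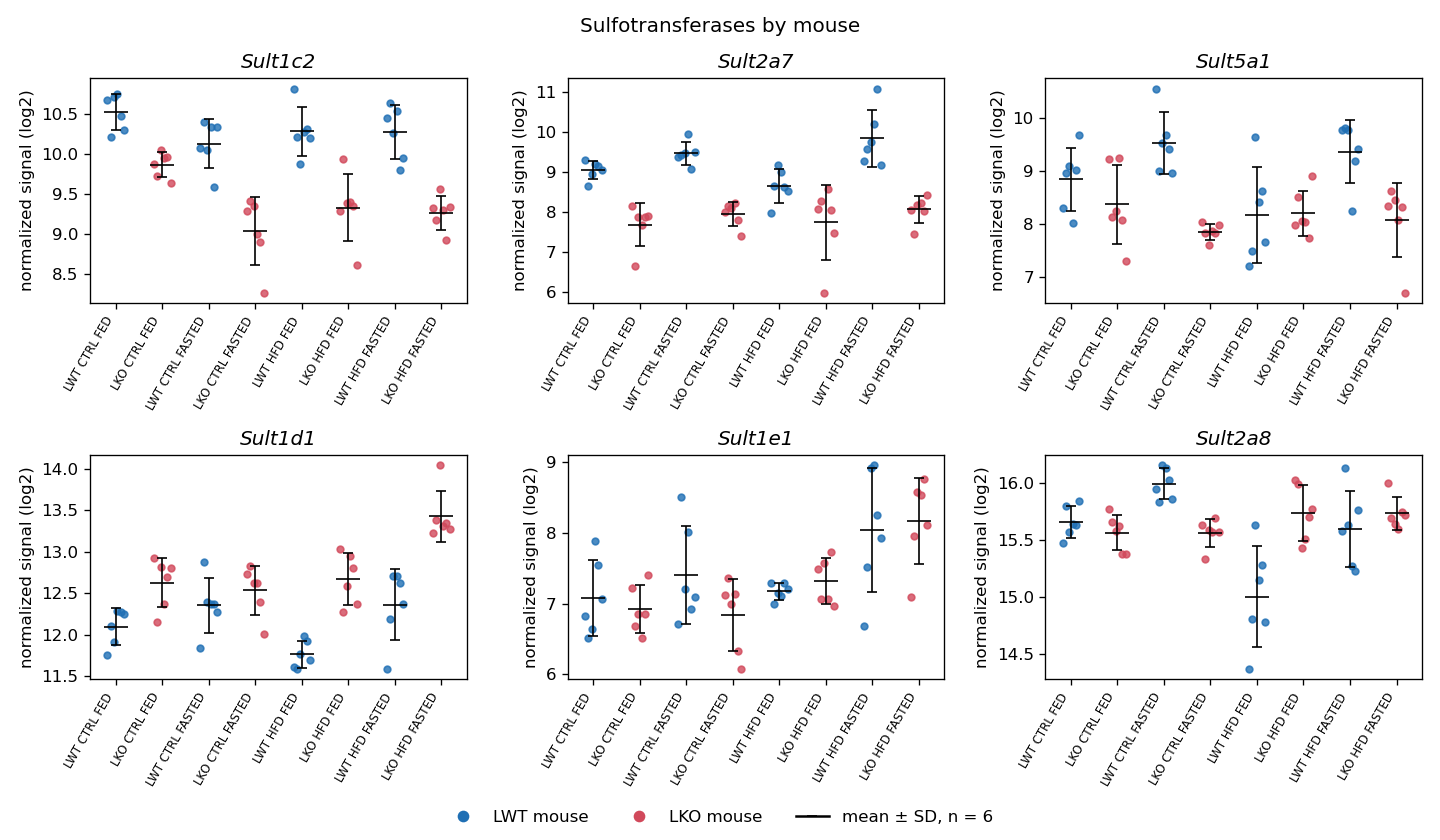
Log2 signal of Sult1c2, Sult2a7, Sult5a1, Sult1d1, Sult1e1 and Sult2a8 in each of the 48 livers, by group (points, single mice, and lines with bars, group mean ± SD, n = 6 per group). Sult1c2 and Sult2a7 are lower in LKO than in LWT livers, while Sult1d1 is highest in fasted LKO mice on HFD.

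Sult1d1, which sulfates catecholamines and other phenols, was in contrast higher in LKO livers in 3 of the 4 settings. Its lowest, median and highest fed signals were 11.76, 12.18 and 12.29 in LWT and 12.16, 12.75 and 12.93 in LKO on CTRL, and 11.59, 11.73 and 11.98 in LWT and 12.27, 12.70 and 13.04 in LKO on HFD. The fasted signals were 11.84, 12.37 and 12.88 in LWT and 12.01, 12.62 and 12.83 in LKO on CTRL, and 11.59, 12.50 and 12.71 in LWT and 13.23, 13.33 and 14.05 in LKO on HFD. All 6 fasted LKO mice on HFD lay above all other mice, and the genotypes did not overlap on HFD in either feeding state. It was 2.05-fold higher in LKO livers in fasted mice on HFD (log2 fold change 1.04 ± 0.17, adjusted p = 4.42e-06), 1.82-fold higher in fed mice on HFD (log2 fold change 0.87 ± 0.16, adjusted p = 5.11e-05) and 1.51-fold higher in fed mice on CTRL (log2 fold change 0.59 ± 0.16, adjusted p = 0.00696). The last call was lost without LKO CTRL FED replicates 1, 3, 5 or 6 or LWT CTRL FED replicates 1 or 3 (log2 fold changes 0.52 to 0.58), and with the 75th percentile or normexp settings (0.58), no filter (0.57) or no array weights (0.53). A second Sult1d1 probe was called the same way in 5 of the 6 pairwise comparisons.

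HFD raised Sult1d1 1.8-fold in fasted LKO mice (log2 fold change 0.85 ± 0.17, adjusted p = 0.000491), and fasting raised it on HFD in LKO (log2 fold change 0.80 ± 0.18, adjusted p = 0.000528, with 0.43 and 1.20 in the 2 washing batches) and in LWT mice (log2 fold change 0.63 ± 0.15, adjusted p = 0.00141, with 0.29 and 0.91 in the 2 washing batches). The LWT call was lost without LWT HFD FASTED replicates 3 or 4 (log2 fold changes 0.54 to 0.55). The HFD effect in fasted mice was larger in LKO than in LWT livers by 0.81 ± 0.23 (adjusted p = 0.0318), lost without LKO CTRL FASTED replicate 6, LKO HFD FASTED replicate 3, LWT CTRL FASTED replicate 3 or LWT HFD FASTED replicates 1 or 2 (log2 fold changes 0.68 to 0.80) or with no filter on dim probes (0.85). The fasting effect in LKO livers was larger on HFD than on CTRL by 0.88 ± 0.24 (adjusted p = 0.0158), lost without LKO HFD FED replicate 2 (log2 fold change 0.75).

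Sult1e1, the estrogen sulfotransferase, had a low signal that rose on fasting in mice on HFD. Its lowest, median and highest signals on HFD were 6.99, 7.17 and 7.29 in fed and 6.68, 8.09 and 8.96 in fasted LWT mice, and 6.97, 7.28 and 7.73 in fed and 7.09, 8.32 and 8.76 in fasted LKO mice. On CTRL they were 6.51, 6.94 and 7.88 in fed and 6.71, 7.15 and 8.50 in fasted LWT mice, and 6.51, 6.85 and 7.41 in fed and 6.08, 7.06 and 7.36 in fasted LKO mice. Fed and fasted mice overlapped in every setting, and in each setting the spread was wider after the fast. Fasting raised it 1.98-fold in LWT on HFD (log2 fold change 0.99 ± 0.28, adjusted p = 0.00565, with 0.26 and 1.58 in the 2 washing batches) and 1.83-fold in LKO on HFD (log2 fold change 0.88 ± 0.32, adjusted p = 0.0357). The LKO call was lost without LKO HFD FASTED replicates 3, 4 or 5 or LKO HFD FED replicates 2, 4 or 6 (log2 fold changes 0.77 to 0.84) or with no filter on dim probes (0.88). HFD raised it 2.31-fold in fasted LKO mice (log2 fold change 1.21 ± 0.30, adjusted p = 0.00616). Within groups, Sult1e1 followed Sult1d1 with r = 0.74 over the 48 livers, given as a description of arrays that both genes share.

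Sult2a8, a bile acid sulfotransferase, was lowest in fed LWT mice on HFD, at 14.37 to 15.63, where fed LWT mice on CTRL ran from 15.47 to 15.84 and fed LKO mice on HFD from 15.43 to 16.03. HFD lowered it 1.56-fold in fed LWT mice (log2 fold change -0.64 ± 0.13, adjusted p = 0.000197), a call lost without LWT HFD FED replicates 1 or 6 (log2 fold changes -0.58 to -0.56). It was 1.74-fold higher in LKO livers in fed mice on HFD (log2 fold change 0.80 ± 0.13, adjusted p = 9.27e-06), and the HFD effect in fed mice differed between genotypes by 0.87 ± 0.19 (adjusted p = 0.00678). Fasting raised it in LWT mice on HFD (log2 fold change 0.62 ± 0.13, adjusted p = 0.000172, with 1.02 and 0.26 in the 2 washing batches), lost without LWT HFD FASTED replicate 2 or LWT HFD FED replicates 1, 2 or 6 (log2 fold changes 0.48 to 0.58) and at 0.56 to 0.58 without the washing correction or with slide or replicate number as a block. The fasting effect on HFD differed between genotypes (LKO minus LWT) by -0.68 ± 0.19 (adjusted p = 0.0366, with -1.09 and -0.32 in the 2 washing batches). That term was lost without LKO HFD FASTED replicates 2, 3, 4 or 5, LKO HFD FED replicates 1 or 2, LWT HFD FASTED replicates 2 or 3 or LWT HFD FED replicates 1, 2 or 6 (log2 fold changes -0.69 to -0.54) and under 5 other settings, at -0.60 to -0.65.

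Sult1a1, the main phenol sulfotransferase of liver, was 1.53-fold higher in LKO livers in fasted mice on HFD (log2 fold change 0.62 ± 0.09, adjusted p = 5.63e-07), at 15.65 to 16.07 against 15.13 to 15.38 in LWT mice. The call was lost without LKO HFD FASTED replicate 2 (log2 fold change 0.57). Its values in the other settings were 0.52 fed on CTRL, 0.41 fed on HFD and 0.35 fasted on CTRL, with adjusted p-values of 1.5e-05, 0.000213 and 0.00124 and fold changes under 1.5. Sult1b1, a thyroid hormone sulfotransferase, Sult1c1 and Sult4a1 were called in no comparison. A second, dimmer Sult1b1 probe was called higher for fasting in LWT on CTRL (0.66, adjusted p = 0.000502) and for HFD in fed LKO mice (0.68, adjusted p = 0.00253), where the probe used gave 0.43 and 0.55, so that the absence of a call rests on the probe.

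The 14 UGT genes had 9 calls in 168 tests (5.36%), beside 17.1% of tests in GST genes, 21.7% in SULT genes and 4.47% over all 20486 genes in the same 12 comparisons, and no test compared the families. All 9 lay in Ugt2b1, Ugt1a10 and Ugt2b5. Ugt2b1, of the UGT2B group that glucuronidates steroids and bile acids, had lowest, median and highest signals in fed mice of 12.23, 12.62 and 13.04 in LWT and 11.89, 12.29 and 12.65 in LKO on CTRL, and 11.48, 11.58 and 11.82 in LWT and 11.39, 11.66 and 11.95 in LKO on HFD. The fasted values were 12.14, 12.55 and 12.75 in LWT and 11.20, 11.82 and 11.97 in LKO on CTRL, and 11.36, 11.76 and 12.14 in LWT and 11.55, 11.92 and 12.22 in LKO on HFD. LWT mice were thus higher on CTRL than on HFD in both feeding states, without overlap when fed. HFD lowered Ugt2b1 2.03-fold in fed LWT (log2 fold change -1.02 ± 0.13, adjusted p = 2.64e-07) and 1.63-fold in fasted LWT mice (log2 fold change -0.71 ± 0.14, adjusted p = 0.000281). In fed LKO mice it fell 1.54-fold (log2 fold change -0.63 ± 0.15, adjusted p = 0.00288), lost without LKO CTRL FED replicates 1 or 4 or LKO HFD FED replicates 4 or 5 (log2 fold changes -0.58 to -0.56). In fasted mice on CTRL it was 1.68-fold lower in LKO livers, without overlap (log2 fold change -0.75 ± 0.14, adjusted p = 4.41e-05). The HFD effect in fasted mice differed between genotypes by 0.84 ± 0.20 (adjusted p = 0.00951), and the fasting effect in LKO livers differed between diets by 0.76 ± 0.21 (adjusted p = 0.0157).

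Ugt1a10, whose human counterpart is chiefly a gut enzyme, had a low signal of 6.65 to 8.08 in fed LWT and 7.78 to 8.53 in fed LKO mice on CTRL. On HFD the fed ranges were 7.52 to 8.19 in LWT and 6.90 to 8.44 in LKO mice. It was higher in LKO livers on CTRL, fed (log2 fold change 0.69 ± 0.20, adjusted p = 0.0114) and fasted (log2 fold change 0.88 ± 0.19, adjusted p = 0.000729), and lower in LKO livers in fed mice on HFD (log2 fold change -0.71 ± 0.20, adjusted p = 0.00638). Only the fasted CTRL groups did not overlap, at 7.11 to 7.73 in LWT and 7.88 to 8.65 in LKO mice. HFD lowered it 2.08-fold in fed LKO mice (log2 fold change -1.06 ± 0.21, adjusted p = 0.000507), and the HFD effect in fed mice differed between genotypes by -1.40 ± 0.29 (adjusted p = 0.00416, with -1.53 and -1.31 in the 2 washing batches). The fed CTRL call was lost without LWT CTRL FED replicate 6 (log2 fold change 0.49), and the fed HFD call without array weights (-0.56).

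Ugt2b5 was 1.52-fold lower in LKO livers in fed mice on HFD (log2 fold change -0.60 ± 0.08, adjusted p = 6.47e-08), at 14.02 to 14.64 against 14.76 to 14.98, with no overlap. The call was lost without LKO HFD FED replicates 5 or 6 or LWT HFD FED replicate 4 (log2 fold changes -0.58 to -0.54), and with the 75th percentile (-0.49), median scaling (-0.55) or no array weights (-0.56). The phenol-conjugating Ugt1a6a and Ugt1a6b, the Ugt2a genes Ugt2a1 and Ugt2a3, the other Ugt2b genes (Ugt2b34, Ugt2b35, Ugt2b36, Ugt2b37 and Ugt2b38) and the Ugt3a genes Ugt3a1 and Ugt3a2 were called in no comparison. Among them, 5 had lower signals in LKO livers in fed mice on HFD at an adjusted p under 0.05 with fold changes under 1.5, namely Ugt2b37 (-0.48, adjusted p = 7.39e-06), Ugt2b38 (-0.45, adjusted p = 2.14e-05), Ugt1a6a (-0.42, adjusted p = 0.000472), Ugt2b36 (-0.29, adjusted p = 0.00104) and Ugt1a6b (-0.18, adjusted p = 0.0286). Dimmer Ugt1a6b probes gave -0.52 (adjusted p = 3.8e-07) and -0.11 (adjusted p = 0.242) in that comparison, so the value for this gene rests on the probe. The Ugt1a6a and Ugt1a6b probes used lie close together, and the Ugt1a genes share a stretch of exons. Whether each probe lies in that stretch was not tested, so either signal may hold several Ugt1a transcripts.

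Genes that act beside these enzymes were read from lists, and their counts over the 12 pairwise comparisons are given here, beside 2.14% of tests higher and 2.34% lower over all genes. Of 4 genes that supply UDP-glucuronic acid and PAPS, calls were 1 higher and 7 lower in 48 tests. The one higher was Ugdh, the enzyme that makes UDP-glucuronic acid, on HFD in fasted LWT mice (0.59), and it was lower in LKO livers in 3 settings, at -0.80 to -1.06. The genes named from these lists were chosen after their values were seen. The 4 genes of glutathione synthesis and reduction (Gclc, Gclm, Gss and Gsr) had no call in 48 tests. The 12 other conjugating enzymes had 5 higher and 5 lower calls in 144 tests, among them Mgst3, a microsomal GST, at 1.09 for HFD in fed LWT mice and -1.13 for genotype in fed mice on HFD, and Nnmt, which methylates nicotinamide, at 0.95 and 1.22 for LKO over LWT in fed mice on CTRL and HFD. Deconjugating enzymes (4 genes) had 1 higher and 2 lower calls, exporters of conjugates (4 genes) 4 higher and 3 lower, and 11 receptors and factors 7 higher and 1 lower. Of 10 genes known to be higher in female liver, calls were 25 higher and 4 lower in 120 tests (20.8% and 3.33%). Of 10 known to be higher in male liver they were 9 higher and 27 lower (7.5% and 22.5%). Only the male-type list is given by comparison below, and the female-type list was not set beside single members. HFD in fed LWT mice called 5 of the 10 male-type genes lower and none higher (median -0.79), against 1.1% of all genes lower and 2.64% higher, in the comparison in which Gstp1, Ugt2b1 and Sult2a8 fell. In fasted LWT mice 5 of the 10 were lower on HFD as well (median -0.54, all genes 0.996% lower), and there only Ugt2b1 of those 3 was called. In fed LKO mice, where Gstp1 and Ugt2b1 fell, 3 of the 10 were lower on HFD (median -0.50, all genes 1.03% lower). For genotype in fasted mice, where Sult2a7 and Sult5a1 were lower, 3 were lower and 1 higher on each diet (medians -0.49 on CTRL and -0.21 on HFD, all genes 1.9% and 4.23% lower). Sult2a7 was lower in fed LKO livers too, where the male-type genes went both ways. For genotype in fed mice on CTRL, 2 were lower and 1 higher (median -0.20, all genes 2.2% lower and 1.53% higher). On HFD 1 was lower and 3 higher (median 0.02, all genes 4.03% lower and 2.2% higher). The part that this plays in those results was not tested.

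Markers of other cells moved with some comparisons. The summed signal of the 5 cholangiocyte markers lay between 9.13 and 9.52 in fasted and 9.55 and 10.06 in fed LKO mice on CTRL, and between 9.25 and 9.82 in fasted and 9.81 and 10.14 in fed LKO mice on HFD. In LWT mice it lay between 10.50 and 11.22 (CTRL fasted), 10.64 and 11.88 (CTRL fed), 11.18 and 11.88 (HFD fasted) and 11.31 and 12.40 (HFD fed). It was thus lower in LKO livers in every setting, where Sult1c2 and Sult2a7 were lower too. The list had 11 lower and 2 higher calls in 60 tests, mostly through Spp1 (genotype values -1.76 to -2.63), while Epcam was well above background on 18 and Krt7 on 28 arrays. Of the lower calls, 1 was for fasting in LWT on CTRL, 2 in LKO on CTRL and 1 in LKO on HFD, comparisons in which mu class genes fell. The other lower calls were for genotype, so the fasting calls of this list lay outside LWT on HFD, where Gstm2 fell too (-0.78). The higher calls were 1 each for HFD in fed and fasted LWT mice, where mu class genes rose. The 3 neutrophil markers summed to 10.41 to 11.70 in fasted and 9.95 to 11.97 in fed LWT mice on HFD, against 9.35 to 10.24 and 9.53 to 10.23 in LWT mice on CTRL, and to 9.27 to 10.92 in LKO mice, with 4 higher and 2 lower calls in 36 tests. Stellate and fibroblast markers (5 genes) had 4 higher and 14 lower calls in 60 tests and summed to 14.36 to 15.52 over the 8 groups. In this list Col1a1 was higher on HFD in LWT mice, at 1.28 fed and 1.83 fasted. It gave -1.79 and -2.32 for LKO over LWT on HFD, and Gstm2 moved the same way in these comparisons. The summed signal differed less by genotype on HFD, with medians of 15.20 in LWT and 15.02 in LKO mice when fed, and 15.26 and 15.05 when fasted. On CTRL the medians were 14.77 in LWT and 14.87 in LKO mice when fed, and 14.78 and 14.82 when fasted. Of the 14 lower calls of the stellate and fibroblast list, 7 were for fasting. They were 3 in LWT on CTRL (list median -0.68), 2 in LKO on CTRL and 2 in LKO on HFD, comparisons in which mu class genes fell too. These fasting calls also lay outside LWT on HFD, where Gstm2 fell. Kupffer cell, endothelial, T and B cell and adipocyte markers had no call. Erythroid markers (2 of 3 passed) had 1 higher and 4 lower calls, and pancreas markers (2 of 4 passed, Prss2 and Pnlip not) 0 and 4. Fasting in LKO mice on CTRL lowered 2 erythroid markers (median -0.80) and 1 pancreas marker (list median -0.56). In that comparison 6 of the 42 genes fell too (all genes 3.44% lower). Each of these lists also had 1 lower call for genotype in fasted mice on CTRL, where Sult1c2 and Sult2a7 were lower. For intestine, Vil1 was well above background on no array and Fabp2 alone passed. Fabp2 was lower in LKO livers in all 4 settings, at -1.37 and -1.01 fed (CTRL and HFD) and -0.62 and -0.81 fasted, where Sult1c2 and Sult2a7 were lower too, and it was higher in LKO mice for fasting on CTRL (0.87) and for HFD when fed (0.90). The 6 hepatocyte markers had 7 higher and 1 lower calls, in Tat and Cps1. The part of these cells in the results above was not tested.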

How the data were processed

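RNA from 48 livers (200 ng each) was labeled with Cy3 and hybridized to Agilent 8x60K mouse arrays on 6 slides (every group once per slide), washed in 2 batches. The authors deposited scanner intensity files made with Agilent Feature Extraction 10.10.1.1 and a table of log2 values normalized with limma. Here log2 median signals (intensity, as deposited) were corrected for washing batch (removeBatchEffect), quantile normalized and fitted with array weights, as the study's methods describe, in limma 3.58.1 (R 4.3.3). Those methods give no rule for the filter, and here probes were kept that were well above background on at least 5 of 6 arrays of a group (30793 probes, against 32437 in the deposited table and 30762 in both). Fits were 2-sided and adjusted by Benjamini-Hochberg over 30793 probes. They were also tested on simulated data, and no outcome of that is given here. The deposited table served as an alternative, beside other scalings, background corrections, filters, blocks, weights, probe summaries and the removal of each array. The array number limits the precision. Named genes were the most changed in each comparison, all with an interaction call, and the 12 with the widest range of group means. The members and lists were chosen with earlier results of these data known.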

Additional observations from a re-analysis of the deposited data

Results flagged for a closer look

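Among the 12 genes described by mouse, 6 of 96 groups of 6 mice held a single mouse set apart from the other 5, where chance alone gives about 1 in 20 groups. Gstm1 read 14.78 in LKO HFD FASTED replicate 1, with the nearest mouse at 14.97. Gstm4 read 11.90 in LKO HFD FASTED replicate 5, with the nearest at 11.66. Gstt3 read 11.76 and Sult2a7 read 6.64 in LKO CTRL FED replicate 2, with the nearest mice at 12.27 and 7.67. Sult1d1 read 14.05 in LKO HFD FASTED replicate 3 (nearest 13.38), and Sult5a1 read 6.70 in LKO HFD FASTED replicate 6 (nearest 8.07).

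For 8 genes an effect differed between groups by an interaction term in limma, given here as the log2 ratio of fold changes. The HFD effect differed between LKO and LWT livers in fed mice for Gsta2 (-1.75), Gstm2 (-1.76), Gstm3 (-0.82), Ugt1a10 (-1.40) and Sult2a8 (0.87). In fasted mice it differed for Gstm2 (-1.16), Sult1d1 (0.81) and Ugt2b1 (0.84). The fasting effect differed between diets in LKO livers for Gstt2 (-0.77), Sult1d1 (0.88) and Ugt2b1 (0.76). On HFD, the fasting effect differed between genotypes for Sult2a8 (-0.68).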

How the results depend on the processing

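Of the 84 calls described, 57 were kept under each of the 11 other settings tried and each removal of 1 array, 67 under the 11 settings and 60 under each removal, and none changed sign. The deposited log2 values kept all 84, and a fit with no array weights lost the most, 9. Replicate numbers did not pair the mice (median correlation 0.012 for the same number and -0.004 for others), and a replicate block kept 81 calls, with 6 calls for fasting in LWT and 9 in LKO mice on CTRL, against 6 and 7. With the adjusted p alone and no fold threshold, the counts rose to 18, 16, 20 and 17 for fasting (LWT CTRL, LKO CTRL, LWT HFD and LKO HFD, with 32.6%, 35.6%, 28.5% and 28.6% of all genes), to 19, 16, 12 and 11 for HFD (LWT fed, LKO fed, LWT fasted and LKO fasted, with 24%, 12.3%, 16.1% and 10.9%), to 15, 23, 21 and 22 for genotype (CTRL fed, HFD fed, CTRL fasted and HFD fasted, with 21.7%, 33%, 24.8% and 36.8%), to 2 for genotype by fasting on CTRL (3.99%) and to 7 for diet by fasting in LKO livers (8.02%). The single genotype by fasting call on HFD became 2 with normexp or with the median over probes, 3 with only probes above background on all arrays, and 0 with no filter, no washing correction, slide as a block or no array weights, and ran from 0 to 3 when 1 array was left out. With the replicate block the count stayed at 1, but the gene called was another one, higher, and Sult2a8 was lost. The diet by fasting count in LWT livers became 1 with the median over probes. Leaving out 1 array, the 4 calls for fasting in LKO mice on HFD ran from 2 (without LKO HFD FED replicate 2) to 5, the 4 for HFD in fed LKO mice from 2 (without LKO HFD FED replicate 5 or LKO CTRL FED replicate 4) to 6, and the 3 for genotype by diet in fasted mice from 2 to 6 (6 without LKO CTRL FASTED replicate 5 or LWT CTRL FASTED replicate 2, 5 without LWT CTRL FED replicate 3). The cause was not tested. The 6 mice per group and the use of 1 probe per gene limit the precision, and signals near background, as for Sult4a1, understate fold changes.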
